A study of Mus musculus with 1012 samples.

Results

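The genes described here are 10 genes of the MHC class I pathway, chosen by name from the 30452 features of a count table of single mouse cells. They are the light chain gene B2m, the heavy chain genes H2-K1 and H2-D1, the peptide transporter genes Tap1 and Tap2, the loading factor gene Tapbp, the immunoproteasome genes Psmb8, Psmb9 and Psmb10, and the transactivator gene Nlrc5. The rule names them and uses no measured value, though it was set with earlier results of these data known. All 10 were counted, and all 10 passed the filter on low counts in both techniques.

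The study compared Live-seq, in which a hollow probe draws a small cytoplasmic biopsy from a cell that stays alive, with scRNA-seq of whole lysed cells. The table held 296 Live-seq libraries, 554 scRNA-seq libraries and 162 scRNA-seq libraries of IBA cells that had or had not been sampled beforehand. RAW cells are a mouse macrophage-like line, either wild-type RAW264.7 (11 LPS and 1 mock Live-seq libraries, 1 batch) or RAW-G9 (all other RAW libraries), a clone that carries an mCherry reporter under the Tnf promoter and an EGFP-Rela fusion. RAW_LPS cells received lipopolysaccharide, a bacterial cell wall component, and RAW_Mock cells did not. The methods of the study give an exposure of 4 to 5 h for the biopsies and no time for the whole cells. The methods of the study give the dose as 100 ng/ml and the sample labels as 40 ng/ul, and which was used was not settled here. IBA cells are an immortalized line from the interscapular brown fat of young male C57BL6/J mice. ASPC are primary adipose stem and progenitor cells from the subcutaneous fat of female C57BL/6J mice aged 7 to 10 weeks, taken before (ASPC_Pre) or 2 days after (ASPC_Post) an adipogenic cocktail of dexamethasone, IBMX, insulin and rosiglitazone.

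MHC class I molecules display short peptides from inside the cell to CD8 T cells. Proteasomes cut cytosolic proteins, the TAP transporter moves the peptides into the endoplasmic reticulum, tapasin holds the transporter next to the empty class I molecule, and a heavy chain, a peptide and beta-2-microglobulin leave for the surface as a complex. Interferons raise the whole set, in part through NLRC5 and transcription factors of the IRF family, and macrophages keep a higher share of immunoproteasomes than most connective tissue cells.

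Counts of the cells of each batch and state were summed. Each sum stood as a replicate, because cells of 1 batch were not taken as replicates of a state. There were 12 scRNA-seq sums of 15 to 95 cells with 5390496 to 45563500 total counts, and 15 Live-seq sums of 4 to 63 cells with 1968561 to 24576618. Levels are given as CPM, the usual scaling of counts to a common total, over the counts left after ribosomal protein and negative-control genes were taken out. A sum cannot tell fewer expressing cells from less RNA in each cell, and nothing in the labels says that batches were separate cultures. With batch as a term, p-values measure how far the differences between states vary from batch to batch. Only the comparison of techniques had no batch term. The whole marker lists followed the labels. In the RAW sums of both techniques, 9 macrophage markers together reached 2388 to 30756 CPM and 9 mesenchymal markers at most 5.63 CPM, whereas in the IBA and ASPC sums of both techniques mesenchymal markers reached 3270.5 to 20062 CPM. Markers of lymphocytes, endothelium and epithelium summed to at most 5.59 CPM, although Itgam was too low to test in the RAW cells. No 2 libraries held identical counts.

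One of the 45 IBA scRNA-seq libraries of batch 9_1 went against its label, with 30552 CPM of macrophage markers and none of the mesenchymal ones. It held 734.83 CPM of B2m, 261.82 CPM of H2-K1, 841.3 CPM of H2-D1, 469.52 CPM of Tapbp and 54.109 CPM of Psmb8, and no count of the other 5 genes. One Live-seq RAW_Mock library of batch 6 held only 4.69 CPM of macrophage markers. Without these 2 libraries, no test of the 10 genes changed its call. The only wild-type mock library was under the minimum of 3 cells for a sum. It held 1758 CPM of B2m, 1959 CPM of H2-K1, 289 CPM of H2-D1 and 67.96 CPM of Tapbp, and no count of the other 6 genes, so its H2-K1 level was above each Live-seq LPS sum.

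H2-K1, H2-D1, Tap1, Tap2, Tapbp, Psmb8 and Psmb9 lie within the major histocompatibility complex on chromosome 17, B2m lies on chromosome 2, and Psmb10 and Nlrc5 lie on chromosome 8. Promoters are shown for the 4 genes that carry the surface complex and its peptide supply, since their levels are set beside each other in each comparison. Each is the 250 bases before the RefSeq start on the GRCm38.p6 build, 5′ to 3′ on the strand of the gene, at chr2:122147437-122147686 (B2m, plus), chr17:34000334-34000583 (H2-K1, minus), chr17:35262844-35263093 (H2-D1, plus) and chr17:34187306-34187555 (Tap1, plus). Capitals mark matches on either strand to the letters GAAANNGAAA or GAANNGAAA (the interferon response element and a shorter form), TTCNNNGAA (the gamma-activated element), to the CCAAT box, to the shorter element TGACG and to the kappa B motif.
B2m: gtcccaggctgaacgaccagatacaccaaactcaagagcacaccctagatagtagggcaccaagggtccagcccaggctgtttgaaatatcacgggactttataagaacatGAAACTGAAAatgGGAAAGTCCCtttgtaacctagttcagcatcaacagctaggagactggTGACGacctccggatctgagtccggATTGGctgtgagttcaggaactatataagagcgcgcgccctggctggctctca
H2-K1: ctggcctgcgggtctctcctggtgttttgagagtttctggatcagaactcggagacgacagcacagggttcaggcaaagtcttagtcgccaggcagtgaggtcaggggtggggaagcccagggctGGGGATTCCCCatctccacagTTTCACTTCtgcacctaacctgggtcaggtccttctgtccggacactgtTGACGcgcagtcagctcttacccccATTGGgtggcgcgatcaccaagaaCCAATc
H2-D1: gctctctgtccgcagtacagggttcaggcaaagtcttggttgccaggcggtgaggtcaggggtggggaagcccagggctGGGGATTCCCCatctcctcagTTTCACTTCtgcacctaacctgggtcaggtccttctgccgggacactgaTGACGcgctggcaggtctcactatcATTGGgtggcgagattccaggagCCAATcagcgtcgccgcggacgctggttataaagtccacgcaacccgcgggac
Tap1: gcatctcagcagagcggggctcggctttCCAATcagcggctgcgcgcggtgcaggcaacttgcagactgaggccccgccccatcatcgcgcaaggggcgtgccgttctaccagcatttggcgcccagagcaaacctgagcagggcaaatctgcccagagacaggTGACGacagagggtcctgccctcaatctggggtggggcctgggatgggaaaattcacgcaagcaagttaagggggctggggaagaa

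Of the 10 genes, 8 had a promoter window, and Tap2 and Nlrc5 had none. CCAAT, in 33.8% of the 32851 windows of all genes, and TGACG, in 17.8%, are short boxes known from class I promoters. They occurred together in 5 of the 8 genes (B2m, H2-K1, H2-D1, Psmb9 and Tap1) and in 6.12% of all windows. H2-K1 had overlapping windows and is counted once. In Psmb9 and Tap1 these are the same sites, read from opposite strands within the bases that their windows share. The kappa B motif was in the windows of B2m, H2-K1 and H2-D1 and in 7.25% of all windows. GAAANNGAAA was matched in B2m alone of the 8 (2.98% of all windows), GAANNGAAA in H2-K1 and H2-D1 (6.31%), and TTCNNNGAA in Psmb8 alone (7.02%). Tap1 and Psmb9 are transcribed away from each other, and their windows shared 225 bases, chr17:34187331-34187555. These matches describe letters and do not show that a factor binds there.

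Several of the genes share sequence with others, which touches their counts. Reads of H2-K1 and H2-D1 can match each other and other class I heavy chain genes, and the authors kept only uniquely mapped reads, so their values are uncertain by an unknown amount. The authors counted without strand and in union mode, in which a read that overlaps exons of 2 genes is given to neither. The overlaps given here are from a GENCODE annotation, whereas the authors counted with an Ensembl release, so theirs may differ. Of the exon bases, 698 of the 3781 exon bases of Tap2, 1053 of the 3628 of Tapbp and 498 of the 3381 of Psmb8 also belong to another gene. The share was 212 bases between Tap1 and Psmb9, 78 bases in Nlrc5, and none in B2m, H2-K1, H2-D1 and Psmb10.

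Per kilobase of exon, B2m had the highest mean level of the 10 genes in whole cells. B2m, the gene of the invariant light chain that all classical class I molecules need, stood in batches 8_8, 9_1 and scRNA at 604, 990.15 and 717 CPM in RAW_Mock cells and at 599, 1746 and 744 CPM in IBA cells. In ASPC_Pre cells it stood at 577 CPM in batch 8_8 and at 1156 CPM in batch 9_1, and in ASPC_Post cells at 1059 CPM in batch 9_1. The 3 cell types overlapped, and batch 9_1 was the highest in each of them.

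The heavy chains were unequal between cell types. H2-K1, which presents peptides as the K molecule, stood at 332, 418 and 540.4 CPM in RAW_Mock cells and at 246, 459 and 390 CPM in IBA cells, in the same order of batches. In ASPC_Pre cells it stood at 63.2 and 110.4 CPM, below each RAW and IBA sum. H2-D1, the gene of the D molecule, stood at 471, 667 and 703 CPM in RAW_Mock cells and at 243, 606 and 489.8 CPM in IBA cells. It was also lowest in ASPC_Pre cells, at 89.7 and 160.3 CPM. Per kilobase of exon, the level of H2-K1 was 0.615 ± 0.062 (SD, n = 3) times that of H2-D1 in RAW_Mock cells, 0.751 ± 0.121 (SD, n = 3) in IBA cells and 0.612 ± 0.0098 (SD, n = 2) in ASPC_Pre cells. On the same per-length scale, B2m was 3.79 ± 0.70 times H2-D1 in RAW_Mock cells, 6.86 ± 2.09 times in IBA cells and 20.45 ± 1.66 times in ASPC_Pre cells.

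The transporter and loading genes had lower mean levels per kilobase than the class I chains in whole cells of each cell type. Tap1, a subunit of the peptide transporter, stood at 77.4, 32.7 and 101.5 CPM in RAW_Mock cells, at 6.46, 27.4 and 21.6 CPM in IBA cells and at 13.6 and 21.1 CPM in ASPC_Pre cells. Each RAW_Mock sum was above each mesenchymal sum. Tap2, its partner, stood at 10.6, 34.6 and 36.2 CPM in RAW_Mock cells, at 24.2, 31.9 and 21.8 CPM in IBA cells and at 14.1 and 17.4 CPM in ASPC_Pre cells, and these groups overlapped. Tapbp, which encodes tapasin, stood at 225, 228 and 355 CPM in RAW_Mock cells and at 97.3, 315 and 175 CPM in IBA cells. It was lowest in ASPC_Pre cells, at 26.3 and 69.5 CPM.

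Psmb8 and Psmb9 had each RAW_Mock sum of whole cells far above each mesenchymal sum, and Psmb10 differed less. Psmb8, the beta5i subunit, stood at 158.7, 153.6 and 158.4 CPM in RAW_Mock cells, a mean of 156.9 ± 2.9 CPM (SD, n = 3). It stood at 3.75, 16.0 and 9.56 CPM in IBA cells and at 7.78 and 13.8 CPM in ASPC_Pre cells. Psmb9, the beta1i subunit, stood at 46.7, 52.5 and 51.1 CPM in RAW_Mock cells, at 0.834, 9.25 and 3.20 CPM in IBA cells and at 1.46 and 3.04 CPM in ASPC_Pre cells. Psmb10, the beta2i subunit, stood at 75.1, 77.6 and 75.6 CPM in RAW_Mock cells, 36.5, 73.4 and 39.4 CPM in IBA cells and 27.7 and 29.9 CPM in ASPC_Pre cells. Nlrc5, the transactivator of class I genes, had the lowest mean level per kilobase of the 10 in RAW_Mock cells and stood at 19.9, 10.2 and 17.4 CPM. It stood at 13.3, 6.67 and 7.26 CPM in IBA cells and at 0.243 and 2.10 CPM in ASPC_Pre cells.

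**Figure D1:**
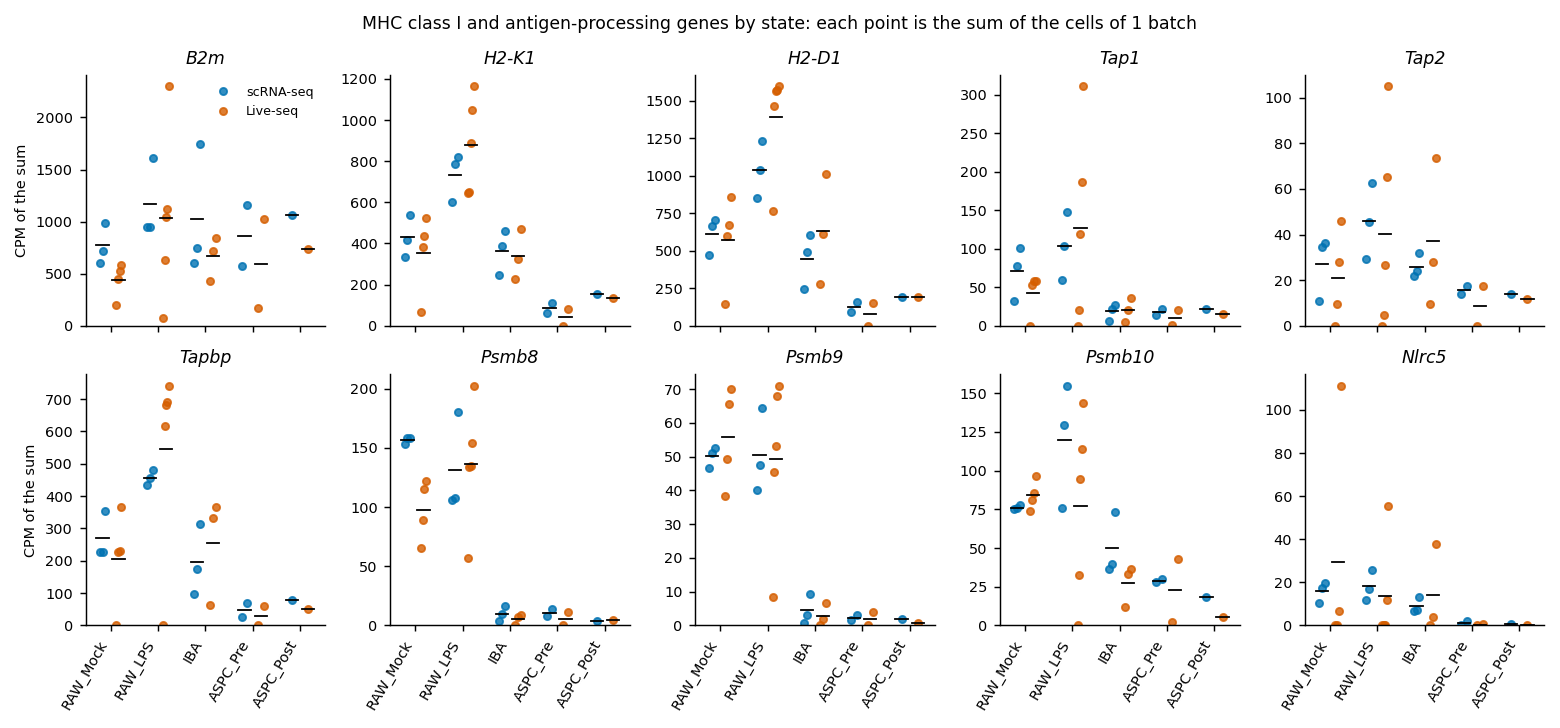
Level of each gene (y axis, CPM of the summed cells, a separate linear scale for each gene) in the 5 states, with 1 point per batch, blue for scRNA-seq, orange for Live-seq and a black bar at the mean. B2m overlaps across all states, H2-K1, H2-D1 and Tapbp have their lowest means in the ASPC states, and Psmb8 and Psmb9 reach at most 16.0 CPM outside the RAW cells.

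In order of their mean level per kilobase in RAW_Mock whole cells, the genes ran B2m (896 CPM per kb), H2-D1 (238), H2-K1 (146.5), Tapbp (74.3), Psmb8 (46.4), Psmb10 (44.6), Psmb9 (13.7), Tap1 (12.9), Tap2 (7.18) and Nlrc5 (1.86). Exon lengths are the union over the transcripts of the same GENCODE annotation. Of the neighbours in this order, H2-D1 and H2-K1, Psmb8 and Psmb10, Psmb9 and Tap1, and Tap1 and Tap2 overlapped over the 3 batches, and the others did not. In ASPC_Pre cells the order began with B2m (1007 CPM per kb), H2-D1 (48.5) and H2-K1 (29.6), and Psmb10 (16.9) stood above Tapbp (13.2).

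RAW_Mock cells were then compared with IBA and ASPC_Pre cells, whose mean was the reference. In whole cells 7 of the 10 genes were called higher and none lower with edgeR's quasi-likelihood test (adjusted p below 0.05 and a log2 fold change beyond 1), against 13.1% of the 13403 genes tested called higher and 25.1% called lower. The median log2 fold change was 1.25 over the 10 genes and -0.20 over all genes tested. Psmb8 was higher by 3.83 ± 0.34 (log2, SE; adjusted p = 4.29e-05, edgeR) and Psmb9 by 3.99 ± 0.51 (adjusted p = 0.00034, edgeR), and these were the 2 largest differences of the 10. H2-D1 was higher by 1.16 ± 0.20 (adjusted p = 0.00153, edgeR), H2-K1 by 1.01 ± 0.19 (adjusted p = 0.00233, edgeR), Tapbp by 1.35 ± 0.34 (adjusted p = 0.0105, edgeR), Tap1 by 1.71 ± 0.47 (adjusted p = 0.0161, edgeR) and Nlrc5 by 1.87 ± 0.63 (adjusted p = 0.038, edgeR).

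B2m, at -0.38 ± 0.20, and Tap2, at -0.02 ± 0.36, were not called, with adjusted p of 0.161 and 0.982 in edgeR. Psmb10, at 0.89 ± 0.26, had an adjusted p of 0.0197 in edgeR but stayed below the fold threshold. Calls other than those of Psmb8, Psmb9 and H2-D1 rested in part on single batches. Without batch 8_8, 4 genes were called, since H2-K1 (0.93, adjusted p = 0.0205), Tap1 (1.05, adjusted p = 0.123) and Tapbp (1.00, adjusted p = 0.0683, edgeR) were lost. Without batch scRNA, Tap1 (adjusted p = 0.0642) and Nlrc5 (adjusted p = 0.113, edgeR) were lost, and without batch 9_1 Psmb10 was added at 1.21 (adjusted p = 0.032, edgeR). With no filter on low counts, H2-K1 fell short of the fold threshold at 0.96. RAW264.7 cells come from BALB/c mice, whose class I alleles differ from those of the C57BL/6 reference genome and of the other cells. For H2-K1 and H2-D1 the cell type and the allele thus cannot be told apart. Cell type and strain cannot be told apart for any other gene of this comparison either. That includes Tap1, Tap2, Tapbp, Psmb8 and Psmb9, which lie in the same complex.

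Each immunoproteasome gene replaces a constitutive partner, and the per-length ratio within a pair sets the sums beside each other without the total. Psmb8 stood at 0.802 ± 0.285 (SD, n = 3) times Psmb5 in RAW_Mock cells, at 0.668 ± 0.086 (SD, n = 3) in RAW_LPS cells, at 0.0541 ± 0.0285 (SD, n = 3) in IBA cells and at 0.0331 ± 0.0074 (SD, n = 2) in ASPC_Pre cells. Each RAW sum, the lowest at 0.566, was above each mesenchymal sum, the highest at 0.0752. Psmb9 stood at 0.0824 ± 0.0275 times Psmb6 in RAW_Mock cells and at 0.00512 ± 0.00336 in IBA cells. Psmb10 stood at 1.27 ± 0.38 times Psmb7 in RAW_Mock cells, at 1.79 ± 0.32 in RAW_LPS cells and at 0.61 ± 0.24 in IBA cells. The constitutive genes themselves gave no call between RAW_Mock and mesenchymal cells, at -0.32 (Psmb5), -0.03 (Psmb6) and -0.13 (Psmb7) on the log2 scale, with edgeR adjusted p of 0.216, 0.909 and 0.54.

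Psmb8 and Psmb9 were also highest in RAW cells among the biopsies. Psmb8 stood at 65.2, 115.5, 89.1 and 121.7 CPM in Live-seq RAW_Mock cells (batches 6, 7, 8_8 and 9_4), at 7.42, 0 and 8.79 CPM in IBA cells (batches 7, 8_8 and 9_4) and at 0 and 11.4 CPM in ASPC_Pre cells (batches 8_8 and 9_4). Psmb9 stood at 38.4 to 70.04 CPM in RAW_Mock cells and at 0 to 6.75 CPM in IBA cells. No RAW_Mock sum of these 2 genes overlapped a mesenchymal one.

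None of the 10 genes was called in Live-seq with edgeR's quasi-likelihood test, where 1.47% of 11667 genes were called higher and 1.83% lower. Psmb8, at 5.07 ± 1.56, had an adjusted p of 0.115 and Psmb9, at 4.95 ± 1.77, one of 0.17, and these 2 had an unadjusted p under 0.05. DESeq2 called both (adjusted p = 0.000436 and 0.00204), and the newer fit of edgeR 4 called both too (adjusted p = 0.0095 and 0.0126). Without batch 9_4, H2-D1 was at 7.16 in Live-seq. That fit kept 1 ASPC_Pre sum, batch 8_8, in which H2-D1 had no count, so the size of this difference is uncertain.

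ASPC_Pre cells were compared with IBA cells, both from C57BL/6J mice. In whole cells 3 of the 10 genes were called lower in ASPC_Pre cells and none higher by edgeR's quasi-likelihood test, against 3.77% of all genes called lower and 7.61% called higher. These were H2-K1 at -1.67 ± 0.25 on the log2 scale (adjusted p = 0.00612, edgeR), H2-D1 at -1.44 ± 0.27 (adjusted p = 0.0137, edgeR) and Tapbp at -1.68 ± 0.44 (adjusted p = 0.0415, edgeR). The median was -0.63 over the 10 genes and 0.11 over all genes tested. B2m, at -0.0047 ± 0.25, had an adjusted p of 0.998, and Nlrc5, at -2.32 ± 0.89, one of 0.118 in edgeR, while DESeq2 also called Nlrc5 (-2.39, adjusted p = 0.0373).

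The calls depended on the batches, of which 2 held ASPC_Pre cells. Without batch 9_1 none of the 3 was called, at -1.77, -1.43 and -1.85 for H2-K1, H2-D1 and Tapbp (adjusted p = 0.0723, 0.1247 and 0.0966, edgeR). Without batch scRNA only H2-K1 was called, with H2-D1 at -1.42 and Tapbp at -1.78 (adjusted p = 0.0573 and 0.0903, edgeR), and without batch 8_8 Tapbp was lost (adjusted p = 0.0946, edgeR). Without the batch as a replicate block, H2-K1 alone was called, with H2-D1 at -1.56 and Tapbp at -1.72 (adjusted p = 0.0674 and 0.0887, edgeR).

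**Figure D2:**
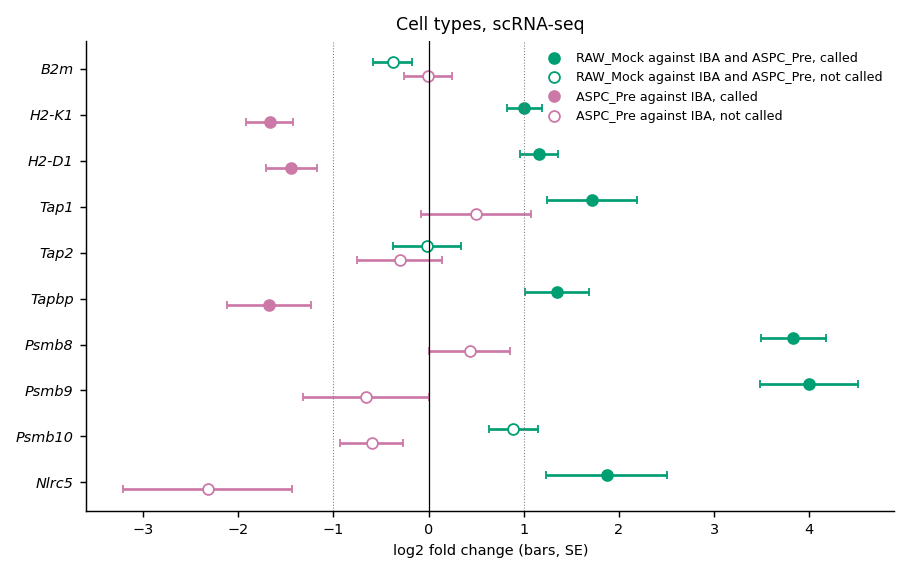
Log2 fold change of each gene in whole cells (x axis, bars are SE), for RAW_Mock against IBA and ASPC_Pre cells in green and ASPC_Pre against IBA cells in pink, filled where called and open where not. Psmb8 and Psmb9 lie near 4 in green, 7 green points are filled, and H2-K1, H2-D1 and Tapbp are the 3 filled pink points, all below -1.

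In Live-seq none of the 10 genes was called between ASPC_Pre and IBA cells by edgeR, where 2 genes of 11667 (0.0171%) were. H2-K1 stood at 325, 227 and 469 CPM in IBA cells (batches 7, 8_8 and 9_4) and at 0.249 and 79.8 CPM in ASPC_Pre cells (batches 8_8 and 9_4). H2-D1 stood at 608, 276 and 1014 CPM in IBA cells and at 0 and 154.3 CPM in ASPC_Pre cells. Neither gene's groups overlapped. The fitted differences were -3.46 ± 1.45 and -3.48 ± 1.68, with an unadjusted p under 0.05 for H2-K1 alone of the 10 and adjusted p of 1 for both, and DESeq2 called none of the 10. The 18 ASPC_Pre biopsies of batch 8_8 held 4009619 kept counts with a median of 1722.5 genes per library, and in them H2-D1, Tap2, Psmb8, Psmb9 and Nlrc5 had no count.

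LPS raises NF-kappa B and, through interferon beta, the interferon genes in macrophages, and the comparison asked how far the class I genes followed. H2-K1 stood in RAW_LPS whole cells at 602, 785 and 818 CPM in batches 8_8, 9_1 and scRNA, against the 332, 418 and 540.4 CPM of RAW_Mock cells. H2-D1 stood at 850.25, 1233 and 1034.5 CPM, against 471, 667 and 703 CPM. Tapbp stood at 433, 479.97 and 455 CPM, against 225, 228 and 355 CPM. For these 3 genes each LPS sum was above each mock sum, which held for 6.12% of the 13403 genes. The 9 macrophage markers summed to 7646 to 9646 CPM in the mock and 5479 to 7654 CPM in the LPS sums, a nearly complete separation. None of the 8 tested singly was called, with a median log2 fold change of -0.40, and their part in these differences was not tested.

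B2m stood at 946, 1607 and 947 CPM in RAW_LPS cells and was 1.57, 1.62 and 1.32 times its mock level within the 3 batches, but the highest mock sum, 990.15 CPM, was above 2 of the LPS sums. Tap2 stood at 29.3, 45.6 and 62.5 CPM after LPS and Psmb10 at 129.6, 154.5 and 76.2 CPM. B2m, H2-K1, H2-D1, Tap2, Tapbp and Psmb10, 6 of the 10, were higher after LPS within each of the 3 batches, as were 14.9% of all genes tested. For Psmb10 the ratio was 1.73 and 1.99 in batches 8_8 and 9_1 and 1.01 in batch scRNA.

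The remaining 4 genes went both ways. Psmb8 stood at 107.5, 180.4 and 105.6 CPM after LPS, which was 0.6775, 1.175 and 0.667 times mock within batches. Psmb9 stood at 47.5, 64.4 and 39.97 CPM, or 1.02, 1.23 and 0.783 times mock. Tap1 stood at 59.3 to 147.3 CPM, or 0.767, 3.15 and 1.45 times mock, and Nlrc5 at 11.9, 16.8 and 25.7 CPM, or 0.597, 1.65 and 1.48 times. The 2 immunoproteasome genes that set RAW cells apart from mesenchymal cells were thus not higher in every batch after LPS.

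By edgeR's quasi-likelihood test none of the 10 genes was called in whole cells, where 0.933% of 13403 genes were called higher and 0.313% lower after LPS. The median log2 fold change was 0.72 over the 10 genes and -0.01 over all genes tested, and 6 of the 10 and 1971 of all genes had an unadjusted p under 0.05. H2-K1 was at 0.92 ± 0.21 (adjusted p = 0.0754), H2-D1 at 0.90 ± 0.22 (adjusted p = 0.0983) and B2m at 0.71 ± 0.22 (adjusted p = 0.172, edgeR). Tapbp was at 0.91 ± 0.37 and Tap2 at 0.96 ± 0.39, both with an adjusted p of 0.294, and Psmb10 at 0.73 ± 0.28 (adjusted p = 0.278, edgeR). Tap1, Psmb8, Psmb9 and Nlrc5 lay between -0.21 and 0.56 with adjusted p of 0.695 or more. The fit scales sums by TMM factors, and CPM does not, so fitted differences need not equal the ratios within batches.

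The side of the adjusted p, though not the call, changed with the fit. DESeq2 gave adjusted p of 0.0194 for B2m, 0.000276 for H2-K1 and 0.0014 for H2-D1, and a fit on the RAW sums alone gave 0.0209, 0.0124 and 0.0124 with 0.0305 for Tapbp, while all these fold changes stayed below 1 on the log2 scale.

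**Figure D3:**
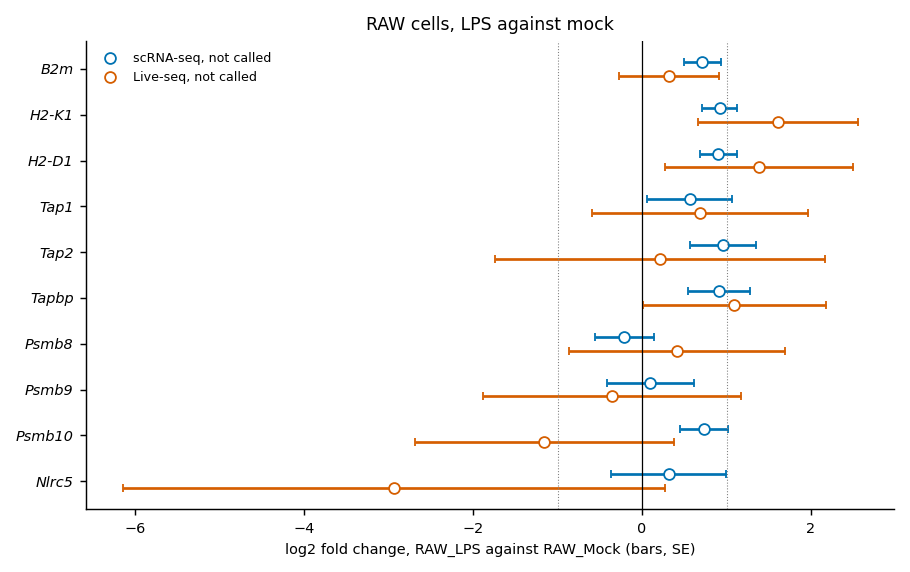
Log2 fold change of each gene, RAW_LPS against RAW_Mock (x axis, bars are SE), in scRNA-seq (blue) and Live-seq (orange), with dotted lines at -1 and 1. All points are open because none was called, the 6 whole-cell points from B2m, H2-K1, H2-D1, Tap2, Tapbp and Psmb10 lie between 0.71 and 0.96, and the Live-seq bars are wider.

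In the biopsies H2-K1 stood at 644, 1163.5, 650.1 and 1047 CPM in RAW_LPS cells of batches 6, 7, 8_8 and 9_4, against 65.2, 437, 383 and 525.8 CPM in RAW_Mock cells. The wild-type batch 5Reseq stood at 887 CPM. H2-K1 was the only one of the 10 genes for which each LPS sum was above each mock sum, which held for 0.797% of the 11667 genes. H2-D1 stood at 1593, 1461, 766 and 1565 CPM after LPS, against 142.6, 672, 600.15 and 858 CPM, and here the groups overlapped through batch 8_8. H2-K1 and H2-D1, 2 of the 10, were higher in each of the 4 batches with a sum of both states, as were 3.23% of all genes.

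B2m was higher after LPS in batches 7, 8_8 and 9_4, at 1121, 631 and 1048 CPM against 582, 453 and 523 CPM. In batch 6 it went the other way, from 194.4 to 70.9 CPM, in sums of 8 mock and 4 LPS cells. Tapbp was higher in the same 3 batches, at 740, 692 and 617 CPM against 227, 229 and 368 CPM, and Psmb8 at 202, 134 and 134.4 CPM against 115.5, 89.1 and 121.7 CPM. Tap1, Tap2, Psmb9 and Psmb10 were each higher in 2 of the 4 batches, and Nlrc5 in none.

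edgeR called none of the 10 genes, and none of the 11667 (0%), between LPS and mock in Live-seq. At an unadjusted p under 0.05 there were 549 genes and none of the 10, and DESeq2 called 452 genes and none of the 10. H2-K1 was at 1.61 ± 0.94 and H2-D1 at 1.38 ± 1.11. The standard errors of the 10 ran from 0.60 (B2m) to 3.21 (Nlrc5) in Live-seq and from 0.21 to 0.68 in scRNA-seq. The difference between the LPS effects of the 2 techniques, tested as an interaction by edgeR, was called for none of the 10 and none of 13462 genes (0%), with 668 genes and none of the 10 at an unadjusted p under 0.05, and for 392 genes and none of the 10 by DESeq2. For H2-K1 it was 0.64 ± 1.09, with a standard error larger than the difference itself.

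The wild-type RAW264.7 line gave 11 LPS biopsies in 1 batch, so line and batch cannot be told apart and no test was made. B2m stood at 2301 CPM there (95% Poisson interval 2260 to 2343), above the 70.9 to 1121 CPM of the 4 RAW-G9 sums. H2-K1 at 887 CPM, H2-D1 at 1573 CPM, Tapbp at 682 CPM and Psmb8 at 153.9 CPM lay within the range of the RAW-G9 sums. All intervals of this kind cover counting error only, since reads were amplified and carried no molecular identifiers.

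A few RAW cells had 2 Live-seq libraries, one as RAW_Mock and one as RAW_LPS, which allows the same cell to be followed. By the methods of the study, the second biopsy followed both the first biopsy and LPS. LPS and the earlier biopsy therefore cannot be told apart in these pairs. B2m was higher in 4 of 4 cells, from 820, 984, 258 and 8.15 CPM to 951, 1219, 1267 and 1514 CPM. H2-K1 went from 640, 712, 451 and 0 CPM to 1011, 1513, 974 and 1420 CPM in the same order. H2-D1 went from 972, 886, 137 and 0 CPM to 2168, 1423, 1886 and 1907 CPM. For H2-K1 and H2-D1 the lowest LPS value was above the highest mock value.

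Psmb8 was also higher in 4 of 4 cells, from 69.6, 229, 235 and 0 CPM to 164.9, 316, 309 and 160.3 CPM. Psmb9 had no count in any of the 4 mock libraries and 23.3 to 70.7 CPM in the 4 LPS libraries. Tap1, Tap2, Tapbp and Psmb10 were higher in 3 of 4, and Nlrc5 had no count in any of the 8 libraries. The mock library of the fourth cell held 122643 kept counts and the LPS library 729802. Without that cell the direction of B2m, H2-K1, H2-D1, Psmb8 and Psmb9 was the same in 3 of 3 cells. For the third cell the labels number both libraries as the first extraction, and cells of 1 dish are not replicates, so no test was made.

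**Figure D4:**
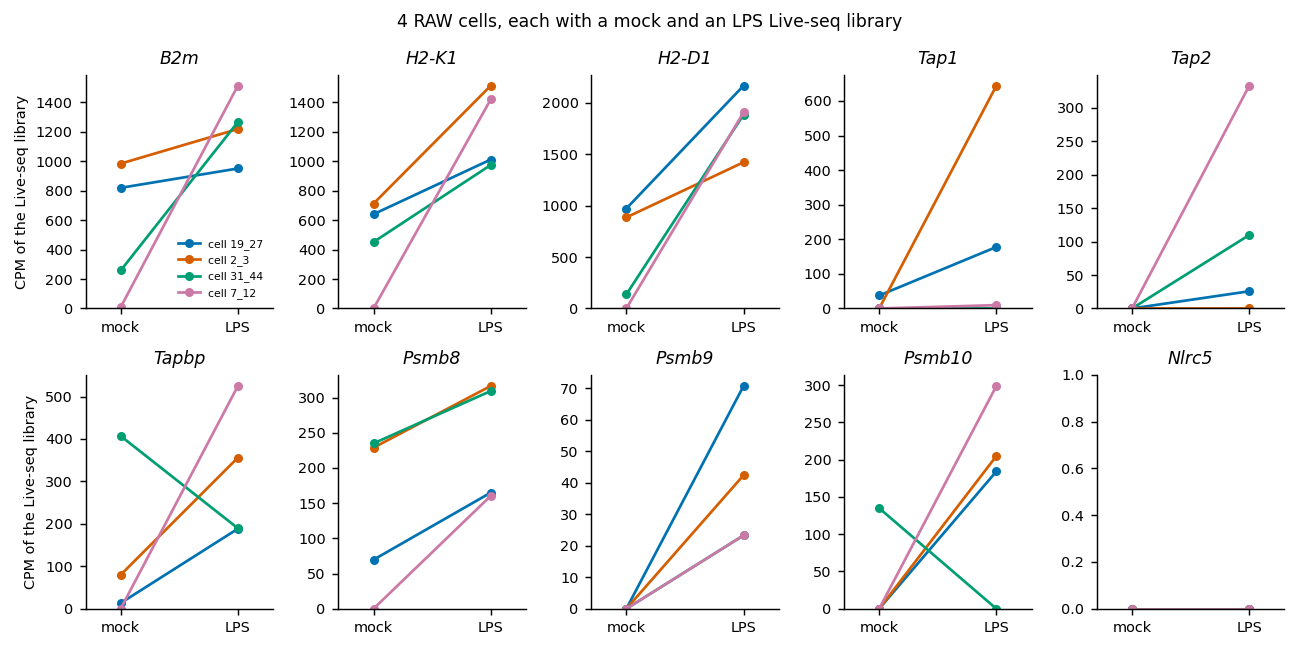
Level of each gene (y axis, CPM of a Live-seq library) in 4 RAW cells sampled as mock and as LPS (x axis), with 1 coloured line per cell. H2-K1 and H2-D1 are higher as LPS in each cell, at between 974 and 1513 CPM and at between 1423 and 2168 CPM, and Nlrc5 stays at 0.

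In 9 ASPC cells with a library before and one after the adipogenic cocktail, the genes had no common direction. The pairs are those of the labels, and the study reported fewer pairs past its quality control. By its methods, the ASPC sampled before and after induction carried a lentiviral GFP reporter with a barcode. The earlier biopsy and the cocktail cannot be told apart in these pairs. B2m was higher after in 4 and lower in 5, with medians of 613 and 601 CPM. H2-D1 was higher in 3 and lower in 6, and Tapbp was higher in 2 and lower in 7, with a median of 108.1 CPM before and of 0 CPM after. Nlrc5 had no count in any of these libraries.

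The share of cells with a count was lower among biopsies than among whole cells for each gene and state, except B2m in ASPC_Post cells (37 of 37 biopsies and 35 of 35 whole cells). No test was made of these shares, and some gaps were small, such as Nlrc5 in ASPC_Post cells with 0 of 37 biopsies and 1 of 35 whole cells. RAW_Mock whole cells numbered 16, 46 and 95 in batches 8_8, 9_1 and scRNA, and RAW_Mock biopsies 1, 8, 20, 63 and 12 in batches 5Reseq, 6, 7, 8_8 and 9_4. B2m had a count in 100% of these whole cells (95% exact binomial interval 97.7 to 100%) and in 87.5% of these biopsies (79.6 to 93.2%). H2-K1 had one in 100% and in 83.7%, and Psmb8 in 100% and in 60.6%. Tap1 had one in 78.3% (71.1 to 84.5%) and in 19.2% (12.2 to 28.1%). Nlrc5 had one in 53.5% and in 6.73% (2.75 to 13.4%). The exact binomial intervals of shares, here and below, take cells pooled over batches as independent. They do not cover the spread between batches. The median depth was 506778 counts per biopsy and 467677 per whole cell, while the median number of genes was 4035 and 8531. After each library was thinned to 50000 counts the shares for Tap1 were 16.7% and 60.9%, and for Psmb8 55.9% and 96.8%. Psmb9 in ASPC_Pre cells then went the other way, with 11.5% of biopsies and 8.33% of whole cells.

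The shares are given between cell types as a description, with no test. Psmb9 had a count in 96.2% of RAW_Mock whole cells (91.9 to 98.6%), in 27.5% of IBA cells (20.6 to 35.2%) and in 18 of 60 ASPC_Pre cells (30%), and after thinning in 75.6%, 11.1% and 8.33%. Among biopsies it had one in 41.3% of RAW_Mock cells, in 3 of 44 IBA cells (6.82%) and in 7 of 61 ASPC_Pre cells (11.5%). Tap2 had the other order among biopsies, with 22.1% of RAW_Mock and 43.2% of IBA cells. H2-K1 had a count in each of the 15, 45 and 93 IBA whole cells of the 3 batches and in 43 of 60 ASPC_Pre cells (71.7%). In ASPC_Post cells Nlrc5 had a count in 0 of 37 biopsies. The exact binomial interval allows up to 9.49% of such biopsies to hold a count. That limit takes the biopsies, all of 1 batch, as independent. It does not limit the share of cells that hold the transcript.

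**Figure D5:**
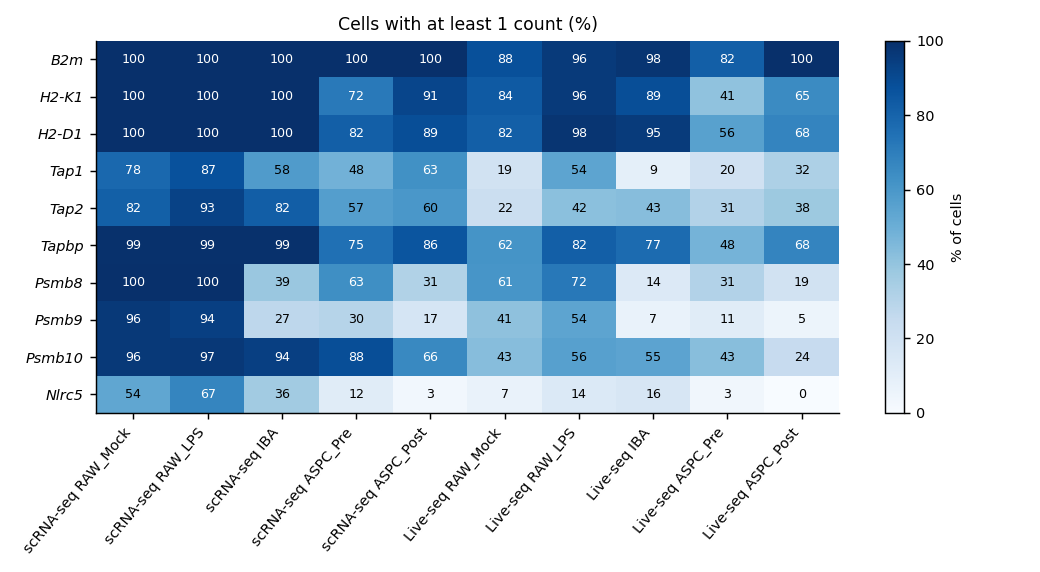
Share of cells with at least 1 count of each gene (rows; number and shade, in %) in the 5 states of scRNA-seq and Live-seq (columns). B2m is at 100 in all 5 whole-cell states, biopsy columns are lighter than the whole-cell columns of the same state for Tap1, Tap2 and Nlrc5, and Psmb8 and Psmb9 are darkest in the RAW columns of each technique.

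The level over all cells of a sum was compared between techniques as well. With state in the model, none of the 10 genes was called between Live-seq and scRNA-seq by edgeR's quasi-likelihood test, where 66 of 13462 genes (0.49%) were called, all lower in Live-seq. None of the 10 had an unadjusted p under 0.05, and DESeq2 and the newer edgeR 4 fit also called none of them. Differences ran from -0.46 ± 0.50 (Psmb10) to 0.12 ± 0.43 (H2-D1), with a median of -0.18 over the 10 and of -0.34 over all genes tested. Only batch 8_8 held both techniques, so technique and batch are largely the same split.

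Adipogenic induction was covered by 1 batch per technique. H2-K1 stood at 110.4 CPM in ASPC_Pre and 156.45 CPM in ASPC_Post whole cells of batch 9_1, and at 79.8 and 136 CPM in biopsies of batch 9_4. Psmb8 was lower after induction, from 13.8 to 4.07 CPM and from 11.4 to 4.19 CPM, as did Psmb10, from 29.9 to 18.5 CPM and from 42.8 to 5.38 CPM. B2m stood at 1156 and 1059 CPM in whole cells and at 1024 and 733 CPM in biopsies. edgeR called none of the 10 genes and none of 13462 (0%) over both batches, with 587 genes and none of the 10 at an unadjusted p under 0.05, and DESeq2 called 97 genes and none of the 10. H2-K1 was at 1.15 ± 0.82 and Psmb8 at -1.07 ± 1.08.

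IBA cells collected 1 h and 4 h after a biopsy were set beside cells that had not been sampled, in 1 batch and with no test. B2m stood at 989 CPM (95% Poisson interval 976 to 1001) in the cells not sampled, at 1169 CPM (1155 to 1184) after 1 h and at 1105 CPM (1089 to 1121) after 4 h. H2-K1 stood at 234, 247 and 301 CPM and H2-D1 at 363, 381 and 328 CPM in the same order. The sum of Tapbp was lower after sampling, at 66.1, 38.5 and 50.6 CPM, while its median over cells was 29.5, 25.2 and 29.0 CPM. The sum of Tap1 was highest after 4 h, at 5.70, 4.75 and 12.6 CPM, with a median over cells of 0 CPM each time. Psmb8 (2.34, 2.68 and 2.64 CPM) had overlapping intervals, and Psmb10 stood at 50.5, 44.6 and 50.2 CPM.

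The genes around the 10 were read from lists for neighbouring steps of the pathway. After LPS in whole cells, 2 of 15 regulators were called higher by edgeR's quasi-likelihood test and none lower, with a list median of 0.46. Nfkb1, an NF-kappa B subunit gene, was higher by 1.71 ± 0.28 (adjusted p = 0.0286, edgeR), from 124, 56.6 and 90.2 CPM to 543, 146.3 and 229 CPM in batches 8_8, 9_1 and scRNA. Irf9, a subunit of an interferon-activated transcription factor complex, was higher by 1.92 ± 0.36 (adjusted p = 0.0417, edgeR), from 7.39, 21.6 and 39.7 CPM to 32.2, 80.2 and 98.2 CPM. Both calls were lost without batch 8_8. The 5 loading and trimming genes (Calr, Pdia3, Canx, Erap1 and Tapbpl), the 3 constitutive subunits, the 4 activator and assembly genes, the 8 tested interferon receptor and kinase genes and the 5 tested class II genes gave no call. Of the activators, Psme2 stood at 140, 128 and 115 CPM in mock and at 347, 329.76 and 222 CPM in LPS cells, with 1.34 ± 0.30 (adjusted p = 0.072, edgeR).

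Of the 13 class I-like genes, 1 was called after LPS. Mr1, which presents vitamin metabolites, had no count in the 3 RAW_LPS sums of whole cells and stood at 0, 1.80 and 6.82 CPM in the mock sums. Over the state this was 280 mock counts against none. Reads were amplified and carried no molecular identifiers, so the size of this difference is uncertain. The call rested on 2 of the 3 mock sums (adjusted p = 0.0368, edgeR). This call was also lost without batch 8_8. Ifnb1 and Ciita were too low to test, and Ifng was not analysed here.

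Between RAW_Mock and mesenchymal whole cells, 7 of the 13 class I-like genes were called higher and 2 (H2-T22 and Mr1) lower by edgeR, with a list median of 1.89. H2-Q6 stood at 47.4 to 87.9 CPM in RAW_Mock cells and at 0.164 to 2.14 CPM in IBA and ASPC_Pre cells, and H2-M3, which presents formylated peptides, at 48.3 to 102.5 CPM against 6.08 to 22.5 CPM. H2-Q1, H2-Q2, H2-Q4, H2-Q10 and H2-T23 were the others called higher, although the RAW_Mock and IBA sums of H2-Q2 overlapped. Reads of H2-Q genes can match H2-K1 and H2-D1 too, which was not measured. For these class I-like genes, too, cell type and mouse strain cannot be told apart. Erap1, which trims peptides in the endoplasmic reticulum, was higher by 3.09 ± 0.31 (adjusted p = 8.35e-05, edgeR), and Psme1, a proteasome activator subunit, by 1.62 ± 0.28 (adjusted p = 0.00171, edgeR).

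Of the 15 regulators, 2 were called higher in RAW_Mock cells and 1 lower by edgeR, with a list median of 0.10. Of the 8 tested genes of the interferon receptor and kinase list, 3 were called lower and none higher. Of the 5 tested class II genes, 1 was called higher and 1 lower. Over all genes tested, 13.1% were called higher and 25.1% lower. Irf8, a macrophage transcription factor, stood at 151.8 to 222.8 CPM in RAW_Mock cells, at 0 in the 3 IBA sums and at 0.729 and 0.863 CPM in the ASPC_Pre sums. Irf1, an activator of class I promoters, was lower in RAW_Mock cells at -1.70 ± 0.43 (adjusted p = 0.0107, edgeR), and Jak1, an interferon receptor kinase, was lower at -2.13 ± 0.19 (adjusted p = 4.98e-05, edgeR). Socs1, an inhibitor of that signalling, was lower at -3.88 ± 0.51 and Jak2 at -1.88 ± 0.42 (adjusted p = 0.000357 and 0.00615, edgeR). Nfya, a subunit of the factor that binds CCAAT, was higher at 1.24 ± 0.31 (adjusted p = 0.0111, edgeR). Cd74, the class II invariant chain, was higher at 5.94 ± 0.84 (adjusted p = 0.000555, edgeR), while H2-DMb1 had no count in the 3 RAW_Mock sums and 0 to 13.5 CPM in the mesenchymal ones.

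Between ASPC_Pre and IBA whole cells, 4 of the 13 class I-like genes (H2-Q1, H2-Q2, H2-Q4 and H2-Q10) were called lower and 1 higher by edgeR, with a list median of -0.86. H2-Q4 was lower at -2.89 ± 0.52 (adjusted p = 0.0127, edgeR) and H2-Q10 at -3.16 ± 0.74 (adjusted p = 0.0306, edgeR), and H2-Q2 had no count in either ASPC_Pre sum and 7.09 to 16.6 CPM in IBA cells. H2-T22 went the other way, at 3.79 ± 0.56 (adjusted p = 0.00612, edgeR), with 62 to 125 CPM in ASPC_Pre and 5.21 to 12.2 CPM in IBA cells. Of the 15 regulators, 2 were called higher and 2 lower, with a list median of 0.04. Irf8 had the lowest adjusted p (0.00382, edgeR), from no count in IBA cells and 3 and 21 counts in the ASPC_Pre sums. Irf9 was higher at 1.58 ± 0.40 (adjusted p = 0.0374, edgeR), and Rfxap and Nfyc, subunits of factors that bind class I promoters, were lower at -2.83 ± 0.70 and -1.33 ± 0.35 (adjusted p = 0.0346 and 0.04, edgeR). Jak1 was higher at 1.06 ± 0.22 (adjusted p = 0.0195, edgeR), and H2-Ab1, a class II chain, had no count in IBA cells and 2.67 and 6.86 CPM in ASPC_Pre cells.

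Within states the heavy chains varied together from cell to cell. Over the cells of each of the 12 whole-cell sums, Spearman's rho between H2-K1 and H2-D1 had a median of 0.686 (from -0.0643 to 0.847). It had a median of 0.457 between B2m and H2-K1, of 0.361 between B2m and H2-D1, of 0.37 between Psmb8 and Psmb9, of 0.307 between Tap1 and Tap2, and of 0.207 between Tap1 and Psmb9, whose starts face away from each other over the shared promoter. Genes of 1 library share its depth, and H2-K1 and H2-D1 share sequence, so these values are descriptions.

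Across the 12 whole-cell sums, which share batches and states, Pearson's r of log2(CPM + 1) was 0.988 between H2-K1 and H2-D1, 0.985 between Tapbp and H2-D1 and 0.986 between Psmb8 and Psmb9. B2m stood apart, with r of 0.354 with H2-K1, 0.15 with Psmb8 and 0.01 with Nlrc5. Of 9486 other genes with a mean of at least 10 CPM, those most like the mean of the 10 over these sums were H2-K2 (r = 0.981), Enpp4 (0.963), Rhof (0.957), Fam241a (0.955) and Slc16a3 (0.952). H2-K2 is itself a class I locus and stood at 0 to 40.1 CPM.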

How the data were processed

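The authors deposited raw read counts per gene and cell. Per the labels and the methods of the study, base calls were demultiplexed with bcl2fastq 2.19.1, reads were aligned to mm10 with STAR 2.6.1c, and HTSeq counted them. Of the 30452 features, 918 had no count. The 20 negative-control and 91 ribosomal protein genes, a median of 24.1% of the counts of Live-seq and 24.7% of those of scRNA-seq libraries, were left out as in the study. Counts were then summed over the cells of each batch and state, with at least 3 cells per sum. edgeR 4.0.16 (TMM, filterByExpr with a minimum count of 2, quasi-likelihood test, Benjamini-Hochberg adjustment over all genes) was fitted in R 4.3.3 after it had been tested on simulated data, with state and batch as terms. A gene was called where its adjusted p was under 0.05 and its log2 fold change lay beyond 1 in either direction. The labels give batches shared by the states, so the batch was the replicate block. Sums of the same batch correlated in their deviations from the group means at 0.2481 to 0.429 in scRNA-seq and 0.0115 to 0.2191 in Live-seq. The technique comparison had no batch term. Alternatives included DESeq2 1.42.0, and leaving out the 2 libraries that went against their labels was an alternative chosen once the data were known. All 10 genes were named, with up to 4 genes of each list (those called with the lowest adjusted p, otherwise those with the highest mean CPM) and the 5 genes most like the 10. Other genes were named after their values were seen. The members and lists were chosen with earlier results of these data known.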

Additional observations from a re-analysis of the deposited data

Results flagged for a closer look

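Dixon's test over the batches of a state marked 5 of 20 groups of 4 to 10 sums, where chance marks about 1 in 20 groups. The 20 groups were the 10 genes in Live-seq RAW_Mock and RAW_LPS cells, which alone had at least 4 sums. H2-D1 was at 766.141 CPM in RAW_LPS cells of batch 8_8, against 1461 to 1593 CPM in the other 4 batches. Tapbp was at 0 CPM in RAW_LPS cells of batch 6, a sum of 4 cells, against 617 to 740 CPM in the others. Tap1 was at 0 CPM in RAW_Mock cells of batch 6, a sum of 8 cells, against 53.3 to 58.6 CPM in the others. Nlrc5 was at 55.4544 CPM in RAW_LPS cells and at 110.996 CPM in RAW_Mock cells of batch 7, where 2 of 16 and 2 of 20 cells held all of its counts.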

How the results depend on the processing

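None of the 10 genes reversed a called difference under any setting tried. Without the batch as a replicate block, the 3 calls between ASPC_Pre and IBA whole cells became 1, and the genes called became 35 for LPS in scRNA-seq, 940 (386 with the block) for RAW_Mock against mesenchymal cells in Live-seq, 908 (1525) for ASPC_Pre against IBA cells in scRNA-seq and 11 (2) in Live-seq. It changed no other count of calls among the 10 genes. DESeq2 called 710 genes for LPS in scRNA-seq and 452 (0) in Live-seq, 1686 for RAW_Mock in Live-seq, 198 for ASPC_Pre against IBA cells in Live-seq, 392 (0) for the interaction and 97 (0) for adipogenic induction. The newer edgeR 4 fit called 432, 5, 1304, 9 and, for induction, 32, and 2537 for ASPC_Pre against IBA whole cells. In Live-seq DESeq2 and the newer fit each called 2 of the 10 genes for RAW_Mock against mesenchymal cells. With no filter on low counts the counts were 253 and 1 for LPS in scRNA-seq and Live-seq, 13 for ASPC_Pre against IBA cells in Live-seq, 810 (66) for technique and 3 for induction. RLE factors gave 9 and keeping negative-control and ribosomal protein genes gave 4 for induction. A fit on RAW cells alone gave 516 for LPS in scRNA-seq, and batch 8_8 alone gave 0 for technique. For ASPC_Pre against IBA cells in Live-seq, keeping sums of 1 or 2 cells gave 0 and leaving out the 2 libraries that went against their labels gave 1. Leaving out each batch gave 0 to 24 genes for LPS in scRNA-seq, 25 to 520 for RAW_Mock in Live-seq, 51 to 1566 for ASPC_Pre against IBA cells in scRNA-seq and 0 to 3 in Live-seq, 27 to 123 for technique, 0 to 30 for the interaction and 0 to 13 for induction. It gave 4 to 8 (7) of the 10 genes for RAW_Mock in scRNA-seq, 0 to 1 in Live-seq, and 0 to 2 (3) for ASPC_Pre against IBA whole cells. By the median over cells in place of the sum, 21 of 50 levels in Live-seq and 29 of 50 in scRNA-seq counted as moved. This meant a move beyond their spread, except in ASPC_Post cells. Those had 1 batch per technique and so no spread, and all their levels counted as moved. Thinning moved 7 of 50 and 29 of 50 shares of cells with a count. The cause of these changes was not tested. Standard errors of the LPS differences reached 3.21 on the log2 scale in Live-seq.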
